A study of Mus musculus with 2 samples.

Results

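Snhg6, Snhg1, Snhg3, Snhg5, Snhg8, Snhg12, Snhg18, Gas5 and Zfas1 are host genes of small nucleolar RNAs (snoRNAs) whose spliced RNAs are known substrates of nonsense-mediated decay (NMD). They were found by symbol and made up 9 of the 32286 features of both libraries. The set was chosen by its levels across line and stage in these same cells, which were known beforehand, so that every level and ratio of it is a description and carries no test. Decay itself was not measured.

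SnoRNAs guide the chemical modification of ribosomal and small nuclear RNAs, and most of them are cut out of introns of longer host transcripts. In the host genes of this family the introns carry the snoRNAs and the spliced exons carry no long reading frame. The spliced RNA is exported, and when ribosomes meet a stop codon ahead of an exon junction, NMD degrades it, so that the level of the spliced RNA depends on translation and on NMD as well as on transcription. Several of these genes start, like the ribosomal protein genes, at a C within a run of pyrimidines, known as a 5′TOP (terminal oligopyrimidine) motif, which ties translation of an RNA to growth signals. Cnot8, the gene knocked out in the study, codes for an enzyme of the Ccr4-Not complex that shortens poly(A) tails.

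The cells were mouse embryonic stem cells (ESCs) of the ICR strain as labelled, grown in serum and LIF on feeder-coated dishes (S/LIF, 0 h), and epiblast-like cells taken after 48 h in N2B27 with activin A, bFGF and KSR on Matrigel (48h-EpiLCs). Each stage was 1 droplet library, in which equal numbers of WT cells carrying the ROSA mT/mG reporter, which transcribes tdTomato, and Cnot8 KO cells had been mixed. The KO ESCs came from picked colonies grown out of blastocysts of Cnot8 heterozygote matings (a CRISPR/Cas9 mutation in exon 2), and how many lines entered the mixture was not given in the sources used here. The genotype label reads wild type for both mixed libraries, so cells were assigned one by one. Cells with at least 1000 genes and at most 10% mitochondrial UMIs (unique molecular identifiers, each 1 captured RNA molecule) were kept, WT cells had at least 1 tdTomato UMI and none of the Y-linked genes Ddx3y, Eif2s3y, Kdm5d and Uty, and KO cells had no tdTomato and at least 2 UMIs of those genes. No class had a replicate. The stage cannot be told apart from the library it was measured in or from the medium. Per the methods EpiLCs are induced from ESCs in 2i/LIF, so the S/LIF ESCs may not be the cells the 48h-EpiLCs came from. Nor can the Cnot8 genotype be told apart from any other difference between the lines, the Y-linked genes included.

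The rule gave 435 WT and 2978 KO ESCs of 11054 kept cells, and 368 WT and 2977 KO 48h-EpiLCs of 9400 kept cells. Class totals ranged from 6154790 UMIs in the WT ESCs to 59291903 in the KO 48h-EpiLCs, with medians of 13151 to 17628 UMIs per cell. Between the libraries 41 barcodes were shared (0.31% of the ESC barcodes), and 82 ESCs and 84 48h-EpiLCs with UMIs of both markers were left out. Cnot8 itself was at 43.1 UMIs per 1000000 (CPM) in WT and 72.1 CPM in KO ESCs, and at 49.7 and 62.6 CPM in the 48h-EpiLCs. A count made from the 3′ end of the RNA does not read the edited exon 2, so that this is no check of the KO label. The stage markers followed the labels in both lines. Pou3f1, a formative gene, was at 68.1 CPM in ESCs and 436 CPM in 48h-EpiLCs of WT and at 78.7 and 382 CPM in those of KO, and Klf2, a naïve gene, was at 400 and 37.5 CPM in WT and 462 and 93.1 CPM in KO cells.

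All 9 loci are compact, and on GRCm38 (GENCODE M21) they spanned 853 to 5673 bases. Snhg6 lies at chr1:9941959-9944118 on the minus strand and carries Snord87 in an intron. Zfas1 (chr2:167062934-167065862, plus strand) hosts 3 snoRNAs, among them Snord12, and Snhg8 (chr3:123507552-123508404, minus strand) hosts Snora24. Gas5 (chr1:161034422-161038539, plus strand) and Snhg1 (chr19:8723475-8726443, plus strand) carry 9 and 8 snoRNAs. Among those of Gas5 is Mir5117, typed as a snoRNA in the annotation though named as a microRNA. Snhg12 (chr4:132308623-132311024, plus strand) hosts 4 and Snhg3 (chr4:132348014-132353686, minus strand) 2. Snhg5 (chr9:88521050-88522929, minus strand) also has 2, and Snhg18 (chr15:32240565-32244662, minus strand) 1. Positions were set against the annotated spliced form with the most exons among those in the basic set of GENCODE. Every one of these snoRNAs lay in an intron of that form except 1 of the 2 of Snhg3. One snoRNA each of the hosts that differed most between the classes beyond counting error (Snhg6, Zfas1, Snhg8) and of Gas5, which differed least, is shown to make clear what the introns encode. The capitals mark the C and D boxes of the box C/D snoRNAs, which guide methylation, and the ACA box of Snora24, which belongs to the pseudouridylation guides.
Snord87 of Snhg6, chr1:9942463-9942549, minus strand: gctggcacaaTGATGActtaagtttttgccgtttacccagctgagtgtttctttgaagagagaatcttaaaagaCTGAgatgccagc
Snord12 of Zfas1, chr2:167065276-167065365, plus strand: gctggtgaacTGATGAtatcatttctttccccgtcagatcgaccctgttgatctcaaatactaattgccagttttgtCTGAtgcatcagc
Snora24 of Snhg8, chr3:123507937-123508066, minus strand: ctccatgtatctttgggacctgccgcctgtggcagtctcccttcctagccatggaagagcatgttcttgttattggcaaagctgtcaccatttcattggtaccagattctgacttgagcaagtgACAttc
Snord47 of Gas5, chr1:161038082-161038158, plus strand: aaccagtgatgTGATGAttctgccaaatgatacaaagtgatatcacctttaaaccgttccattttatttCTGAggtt
The UMIs counted here came from the polyadenylated host RNA at its 3′ end, and the snoRNAs themselves were not measured.

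The spliced host RNAs were each taken in the GENCODE basic-set form with the most exons. They were 448 to 1486 bases long in 2 to 12 exons. The first reading frame that starts at ATG had 1 to 54 codons (1 in Snhg8) and was followed in all 9 RNAs by at least 1 exon junction 50 or more bases beyond its stop, the arrangement that NMD recognises. Gas5 had 7 such junctions after a first frame of 23 codons, Snhg1 5 after 40 codons, Zfas1 4 after 17 codons, and Snhg6 1 after 53 codons. Snhg3 and Snhg18 also had 1. After the longest reading frame, of 35 to 79 codons, 5 of the 9 RNAs had such a junction, and Snhg3, Snhg5, Snhg18 and Zfas1 had 0. How often other spliced RNAs have such a junction was not computed, so nothing is read from these counts.

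RefSeq start-site windows (GRCm38.p6) were held for 8 of the 9 genes, all but Snhg6, with a pair of starts for Gas5. A C followed by at least 4 more pyrimidines was searched on the sense strand, beginning within 10 bases of the RefSeq start. It was found for 6 of the 8 genes. By window it was in 6 of 9, against 29.0% of 32851 promoters and 52.1% of 73 promoters of ribosomal protein genes. The letters TATAA, searched on the sense strand from 45 to 16 bases upstream, were found for 3 of the 8 genes. By window they were in 3 of 9, against 3.89% of the promoters. The windows of Snhg8, Snhg12, Snhg5 and the downstream start of Gas5 hold the tract, and that of Zfas1 is shown as one without it. In them the capitals mark the TATAA box, where found, and then the pyrimidine tract.
Snhg8, chr3:123508306-123508375, minus strand: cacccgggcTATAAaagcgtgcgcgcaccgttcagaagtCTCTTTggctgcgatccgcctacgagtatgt
Snhg12, chr4:132308639-132308708, plus strand: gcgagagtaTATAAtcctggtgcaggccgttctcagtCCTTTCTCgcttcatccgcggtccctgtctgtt
Snhg5, chr9:88522867-88522936, minus strand: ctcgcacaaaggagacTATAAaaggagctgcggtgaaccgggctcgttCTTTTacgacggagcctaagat
Gas5, chr1:161035127-161035196, plus strand: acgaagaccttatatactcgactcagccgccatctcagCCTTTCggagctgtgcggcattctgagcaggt
Zfas1, chr2:167062895-167062964, plus strand: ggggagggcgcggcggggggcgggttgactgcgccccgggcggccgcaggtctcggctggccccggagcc
The log2 ratio of KO over WT in ESCs was -0.69 for Zfas1 and -0.39 for Snhg1, both without a tract by this search. The Snhg1 window held a run of pyrimidines just past its start that begins with T, which the search did not count. For the genes with a tract the ratio was -0.41 (Snhg8), -0.36 (Snhg12), -0.07 (Gas5), 0.14 (Snhg3), 0.20 (Snhg5) and 0.52 (Snhg18). Whether the tract bears on these ratios was not tested.

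Together the 9 genes took a small and similar part of the RNA in every class, and it was largest in WT ESCs. Their summed level was 1491 CPM (95% counting interval 1461 to 1522) in WT ESCs and 1204 CPM (1193 to 1214) in KO ESCs. It was 1166 CPM (1139 to 1193) in WT and 1108 CPM (1100 to 1117) in KO 48h-EpiLCs. The 4 intervals of the sums therefore separated the WT ESCs from the other 3 classes, and the WT from the KO 48h-EpiLCs. On the log2 scale the sum was 0.31 lower in KO than in WT ESCs (-0.31, -0.34 to -0.28). It was 0.35 lower in WT 48h-EpiLCs than in WT ESCs (-0.35, -0.40 to -0.31). The smaller differences were -0.07 (-0.11 to -0.04) for KO against WT 48h-EpiLCs and -0.12 (-0.14 to -0.10) for the stages in KO cells. Ribosomal protein genes, a measure of the translation machinery, took 22.3% and 20.7% of UMIs in WT and KO ESCs and 24.0% and 21.8% in WT and KO 48h-EpiLCs, an order of the classes unlike that of the host genes. UMIs were not scaled for transcript length, so levels are compared within a gene and not between genes.

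**Figure D1:**
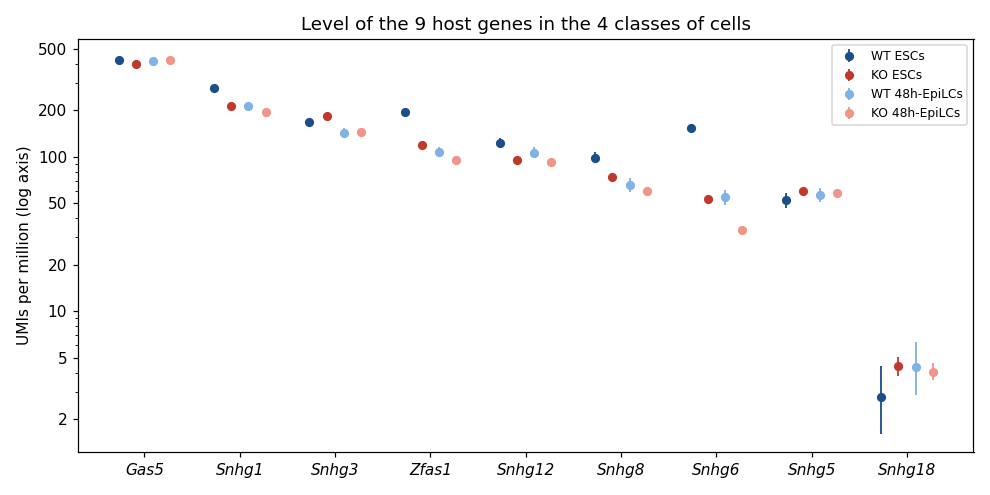
Level of each host gene (CPM, log axis) in the 4 classes of cells, with points for class sums and bars for exact 95% Poisson intervals, which cover counting error only. Snhg6 stands at 154 in WT ESCs and at 33.6 to 54.7 in the other classes, whereas Gas5 stays between 400 and 425.

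Snhg6 differed the most. It was at 154 CPM (145 to 164) in WT ESCs and 53.1 CPM (51.0 to 55.3) in KO ESCs. In 48h-EpiLCs it was at 54.7 CPM (49.0 to 60.8) in WT and 33.6 CPM (32.2 to 35.1) in KO cells. WT ESCs were thus far above all other classes, KO ESCs and WT 48h-EpiLCs overlapped within counting error, and KO 48h-EpiLCs were lowest. The log2 ratio of KO over WT was -1.52 (-1.65 to -1.43) in ESCs and -0.69 (-0.87 to -0.53) in 48h-EpiLCs. Of 9277 genes with a mean of at least 5 CPM over both classes, 28 (0.302%) had a lower ratio of KO over WT in ESCs than Snhg6. From ESC to 48h-EpiLC the log2 ratio was -1.48 (-1.68 to -1.32) in WT and -0.65 (-0.75 to -0.57) in KO cells.

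The same order was seen in the share of cells with a Snhg6 UMI. At each cell's own depth it was 83.2% in WT and 48.2% in KO ESCs, and 58.2% and 45.8% in the 48h-EpiLCs. With every cell thinned to 5000 UMIs, which left out 1 to 23 cells per class, the shares were 51.4% (46.6 to 56.2) and 21.9% (20.4 to 23.4) in WT and KO ESCs and 23.7% (19.4 to 28.4) and 14.5% (13.3 to 15.8) in WT and KO 48h-EpiLCs. No cell type in these libraries is known to lack the host RNAs, so no background from free RNA could be set for these shares. A stretch of 127 of the 1146 exonic bases of Snhg6 overlaps Mcmdc2 on the other strand, and Mcmdc2 was at 0.643 to 2.56 CPM in the 4 classes.

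Zfas1, the antisense neighbour of Znfx1, came next. Its level was 194 CPM (183 to 205) in WT ESCs, 119 CPM (116 to 123) in KO ESCs, 107 CPM (99.3 to 116) in WT 48h-EpiLCs and 95.5 CPM (93.0 to 98.0) in KO 48h-EpiLCs. WT ESCs again stood apart, the intervals of KO ESCs and WT 48h-EpiLCs met, and KO 48h-EpiLCs were lowest. The log2 ratio of KO over WT was -0.69 (-0.79 to -0.60) in ESCs and -0.17 (-0.28 to -0.05) in 48h-EpiLCs, and that of 48h-EpiLC over ESC was -0.85 (-0.99 to -0.71) in WT and -0.32 (-0.38 to -0.27) in KO cells. Zfas1 shares 82 exonic bases with Znfx1 on the other strand, and Znfx1 was at 6.43 to 16.8 CPM and higher in KO than in WT cells at both stages, opposite to Zfas1.

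Snhg8, Snhg1 and Snhg12 were also highest in WT ESCs, with smaller differences. Snhg8 was at 98.6 CPM (90.9 to 107) in WT ESCs and 74.2 CPM (71.7 to 76.8) in KO ESCs, and at 65.8 CPM (59.5 to 72.4) and 60.4 CPM (58.5 to 62.4) in WT and KO 48h-EpiLCs. Snhg1 was at 279 CPM (266 to 292), 213 CPM (208 to 217), 214 CPM (202 to 225) and 195 CPM (191 to 198) in the same order of classes. Snhg12 was at 123 CPM (115 to 132), 95.6 CPM (92.8 to 98.6), 106 CPM (98.2 to 115) and 92.3 CPM (89.9 to 94.8). For all 3 genes the interval of the WT ESCs lay above that of the KO ESCs, with log2 ratios of KO over WT of -0.41 (-0.54 to -0.28), -0.39 (-0.47 to -0.32) and -0.36 (-0.48 to -0.25). In 48h-EpiLCs the same ratios were -0.12 (-0.27 to 0.03), -0.13 (-0.22 to -0.05) and -0.20 (-0.32 to -0.08), so that the interval of Snhg8 included 0 there. Snhg12 had another order of the classes than Snhg6 and Zfas1, since WT 48h-EpiLCs came second, with an interval that met that of the WT ESCs at 115 CPM, and its stage ratio in KO cells was -0.05 (-0.11 to 0.01).

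Gas5, named for its accumulation in growth-arrested cells, was the flattest of the set. It was at 421 CPM (405 to 438) in WT ESCs, 400 CPM (394 to 406) in KO ESCs, 415 CPM (399 to 431) in WT 48h-EpiLCs and 425 CPM (420 to 430) in KO 48h-EpiLCs. Its log2 ratios lay between -0.07 and 0.09 in the 4 comparisons. The part that Gas5 took of the UMIs of the set was 28.2% in WT ESCs, 33.3% in KO ESCs, 35.6% in WT 48h-EpiLCs and 38.3% in KO 48h-EpiLCs.

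Snhg3 and Snhg5 did not follow the others in ESCs. Snhg3 was at 167 CPM (157 to 177) in WT and 184 CPM (180 to 188) in KO ESCs, and at 143 CPM (134 to 153) and 145 CPM (142 to 148) in WT and KO 48h-EpiLCs. Snhg5 was at 52.2 CPM (46.6 to 58.2) and 60.2 CPM (57.9 to 62.5) in WT and KO ESCs, and at 56.6 CPM (50.8 to 62.8) and 58.2 CPM (56.2 to 60.1) in the 48h-EpiLCs. The log2 ratio of KO over WT in ESCs was therefore slightly above 0 for both, at 0.14 (0.05 to 0.23) and 0.20 (0.04 to 0.38), near the median of all genes (0.12). In 48h-EpiLCs the intervals of both included 0. Snhg3 shares 135 of its 986 exonic bases with Rcc1 on the same strand and 705 with Gm17300 on the other. How reads of shared bases were counted was not given in the sources used here, so its counts are uncertain. Rcc1 was at 89.0 to 106 CPM in the 4 classes.

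Snhg18 was close to the limit of detection, with 17 UMIs in WT ESCs (2.76 CPM, 1.61 to 4.42) and 194 in KO ESCs (4.40 CPM, 3.80 to 5.06). It had 27 UMIs in WT 48h-EpiLCs (4.34 CPM, 2.86 to 6.32) and 241 in KO 48h-EpiLCs (4.06 CPM, 3.57 to 4.61). It was the 1 host gene that missed the mean of 5 CPM asked of the genes tested, and no ratio of it cleared 0.

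**Figure D2:**
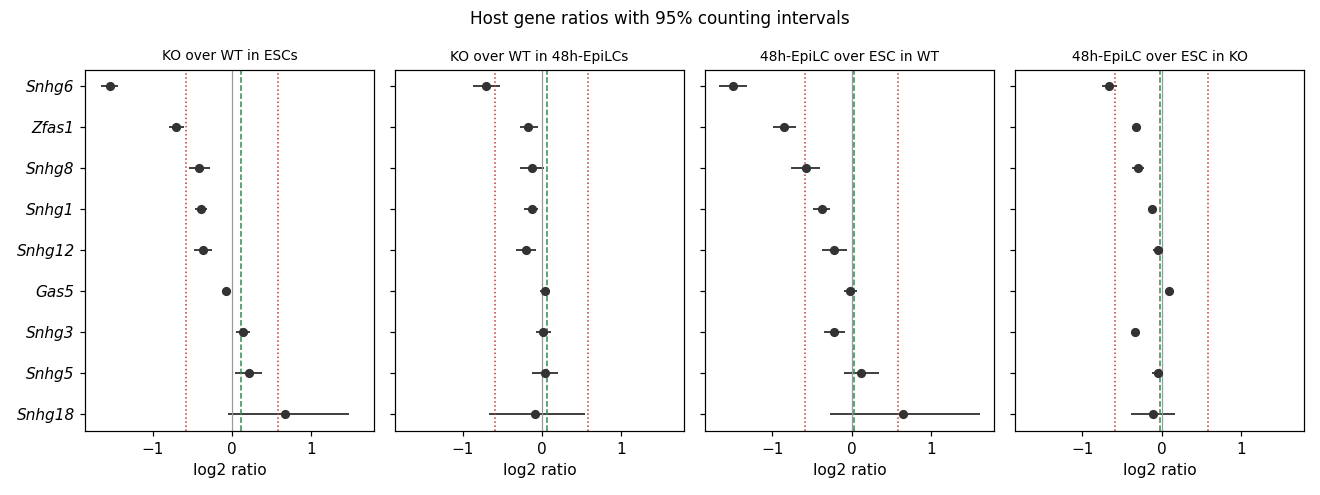
Log2 ratio of each host gene in the 4 comparisons (points, without pseudocount) with exact 95% counting intervals, the median of all genes (green dashed line) and the 1.5-fold limits (red dotted lines). Snhg6 lies past the lower limit in all 4 panels and Zfas1 in both that involve WT ESCs, at -0.69 and -0.85 with the pseudocount.

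With 1 library per stage, a gene was called past the threshold when its ratio of CPM + 1 exceeded 1.5-fold, which is 0.58 on the log2 scale. In ESCs 2 host genes were past 1.5-fold lower in KO than in WT (Snhg6 and Zfas1) and none higher, where 4.98% of all 9277 genes were lower and 12.4% higher. In 48h-EpiLCs 1 was lower in KO (Snhg6) and none higher, where 4.30% and 8.07% of 9385 genes were. From ESC to 48h-EpiLC 2 were lower in WT cells (Snhg6 and Zfas1) and none higher, against 11.4% and 13.3% of 9242 genes. In KO cells 1 was lower (Snhg6) and none higher, against 10.1% and 8.55% of 9478 genes. That call was lost with lines told apart by cluster (Snhg6 at -0.45) and without the top 10% of doublet scores (-0.52), and the call of Zfas1 between the lines in ESCs was lost with lines by cluster (-0.50). Snhg8 fell just inside the threshold in the WT stage comparison, at -0.58. Since these values were known when the genes were chosen, nothing is read from the counts.

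The median log2 ratio of the 9 genes was below 0 in each comparison, at -0.36 (KO over WT in ESCs), -0.12 (KO over WT in 48h-EpiLCs), -0.22 (48h-EpiLC over ESC in WT) and -0.13 (48h-EpiLC over ESC in KO). The medians of all genes tested were 0.12, 0.07, 0.03 and -0.02. Below 0 were 6, 6, 7 and 8 of the 9 genes. Of all genes tested, 63.3%, 59.4%, 52.4% and 47.9% were above 0 in the same order of comparisons. The 2 ratios of KO over WT share the cells of no class, but each shares a class with both stage comparisons, so the 4 sets of values are not independent. TMM scaling, which sets the bulk of genes to 0, would shift all ratios by -0.10, -0.05, -0.01 and 0.04, and the medians stayed below 0.

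**Figure D3:**
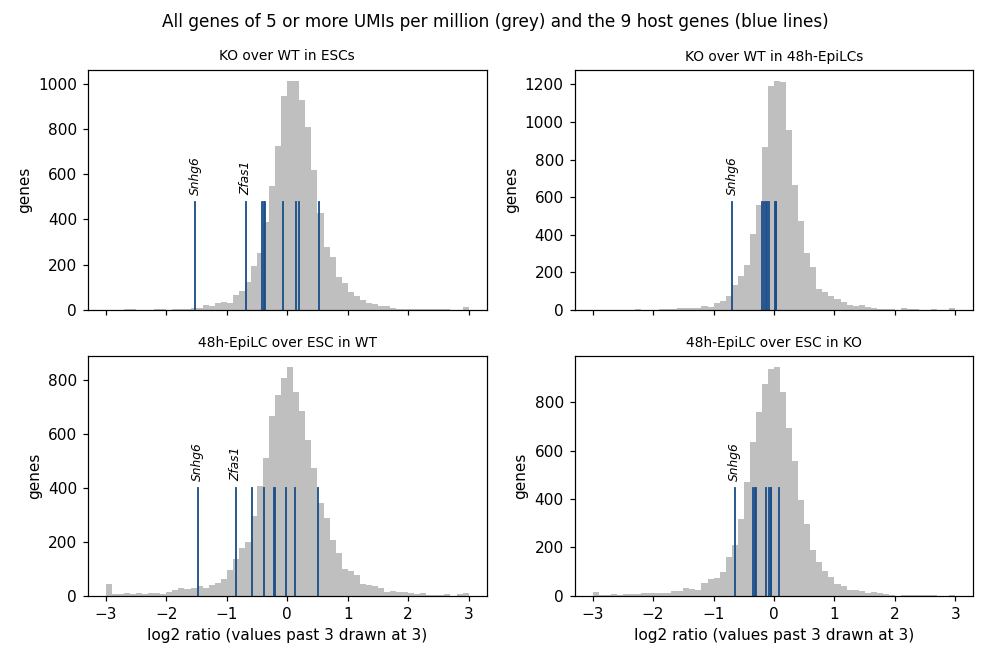
Number of genes at each log2 ratio (grey, genes with a mean of at least 5 CPM over the classes compared) in the 4 comparisons, with the 9 host genes as blue lines of arbitrary height. The genes past 1.5-fold are named, and 28 genes lie below Snhg6 for KO over WT in ESCs.

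The stage ratios of the lines were set side by side for all 9 genes, and a high level in WT ESCs enters this difference by construction. The ratio of 48h-EpiLC over ESC in KO less that in WT was 0.84 on the log2 scale for Snhg6, 0.52 for Zfas1, 0.28 for Snhg8 and 0.26 for Snhg1. It was 0.16 for Snhg12, 0.11 for Gas5, -0.12 for Snhg3, -0.17 for Snhg5 and -0.60 for Snhg18. With 1 library per stage the difference itself was not tested.

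The cells that the rule had left out gave a similar picture in ESCs, and for Snhg6 in 48h-EpiLCs. The left-out cells were kept cells without tdTomato and with fewer than 2 Y-linked UMIs. They were placed in a line through the share of tdTomato cells of their cluster. They numbered 3749 WT and 3227 KO ESCs and 3673 WT and 2255 KO 48h-EpiLCs. They came from the same libraries and are no replicate. Snhg6 was at 140 CPM in these WT ESCs and 47.1 CPM in these KO ESCs (log2 ratio -1.55, -1.65 to -1.49), and at 56.5 and 36.4 CPM in the 48h-EpiLCs (-0.62, -0.73 to -0.54). Zfas1 was at 171 and 124 CPM in the WT and KO ESCs (-0.46, -0.52 to -0.41), which is inside 1.5-fold. In the 48h-EpiLCs it was at 106 and 101 CPM (-0.06, -0.12 to 0.00), so that its interval reached 0 there. Snhg8 had a ratio of -0.49 (-0.57 to -0.43), Snhg1 -0.30 (-0.34 to -0.26) and Snhg12 -0.24 (-0.31 to -0.18) in these ESCs, Gas5 -0.02 (-0.05 to 0.01), and Snhg3 and Snhg5 were both 0.24 higher in KO.

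In the ESC library the larger differences were also seen between clusters of cells. Clusters were made in each library on its own and without the host genes. Over the 4 clusters annotated WT in the ESC library Snhg6 ranged from 97.6 to 164 CPM, and over the 5 KO clusters from 44.4 to 51.6 CPM, without overlap. Zfas1 ranged from 150 to 185 CPM and from 114 to 134 CPM, Snhg1 from 254 to 284 CPM and from 207 to 225 CPM, and Snhg8 from 93.6 to 108 CPM and from 68.7 to 87.4 CPM, also without overlap. Gas5, at 405 to 425 CPM and 394 to 426 CPM, Snhg12, at 100 to 124 CPM and 90.6 to 108 CPM, and Snhg5, at 48.0 to 55.9 CPM and 54.1 to 68.2 CPM, overlapped. The WT cluster with the lowest Snhg6 (97.6 CPM) also had the lowest Zfas1 (150 CPM). It had a median of 21333.5 UMIs per cell, and its Y-linked genes were at 63.2 CPM against 5.2 to 6.7 CPM in the other WT clusters. The part of mixed droplets in its level was not tested. In the 48h-EpiLC library Snhg6 ranged from 42.8 to 68.5 CPM over 4 WT clusters and from 31.1 to 58.3 CPM over 7 KO clusters. The 58.3 CPM was that of 1 KO cluster of 214 cells with Y-linked genes at 33.6 CPM, against 95.3 to 128.7 CPM in the other KO clusters, which reached at most 41.0 CPM of Snhg6. The WT cluster at 42.8 CPM again had a high median of 28683 UMIs per cell and Y-linked genes at 62.0 CPM. In this library the lines also overlapped for Zfas1, at 96.1 to 112 CPM in WT and 81.9 to 125 CPM in KO clusters. So they did for Snhg1 (201 to 215 and 144 to 232 CPM) and Snhg8 (60.1 to 69.6 and 44.5 to 70.7 CPM). The lowest summed level of the set was 941 CPM, in a KO cluster of 191 cells led by H19 and Krt8, where Snhg1 was at 144 CPM and Snhg3 at 111 CPM.

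**Figure D4:**
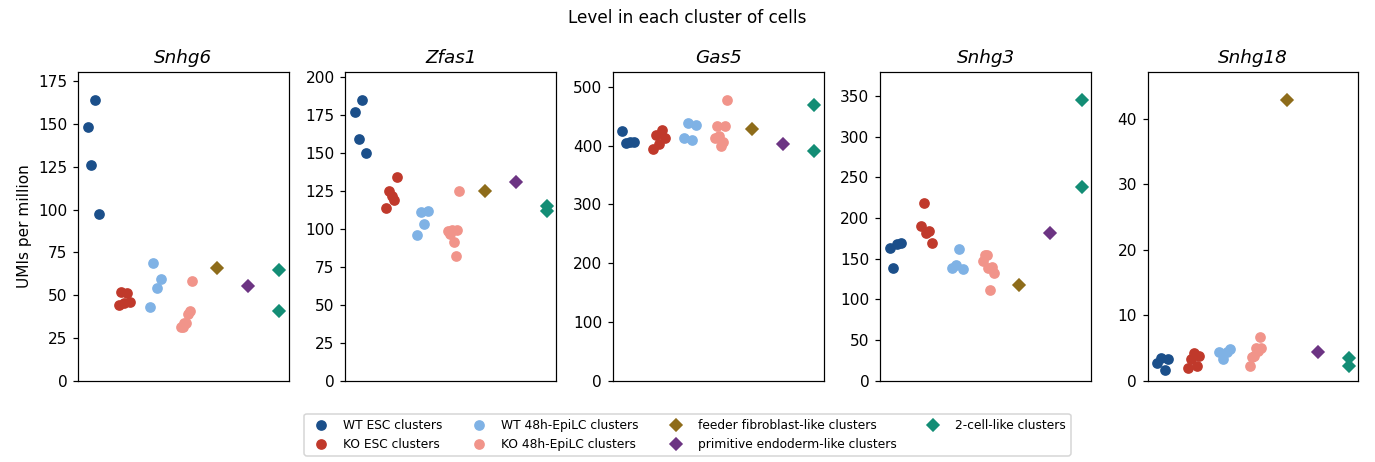
Level of 5 host genes (CPM, linear axis) in each cluster of cells, with circles for clusters annotated WT or KO and diamonds for clusters that met the markers of another cell type (1 unassigned ESC cluster is not drawn). WT ESC clusters lie above all others for Snhg6 (97.6 to 164) and Zfas1 (150 to 185), Snhg3 is highest in the 2-cell-like clusters (238 and 345), and Snhg18 in the feeder fibroblast-like cluster (42.9).

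A few clusters met the marker lists of other cell types, and Snhg18 and Snhg3 had their highest levels there. Snhg18 was at 42.9 CPM in 412 feeder fibroblast-like cells and at 1.58 to 6.61 CPM in all clusters annotated WT or KO. Of the KO ESCs 214 (7.19%) lay in clusters of other cell types, against 13 (2.99%) of the WT ESCs, and the 12 fibroblast markers summed to 105 CPM in KO and 21.1 CPM in WT ESCs, with 0 and 2 of them at 0. Without those clusters the log2 ratio of Snhg18 for KO over WT in ESCs was -0.02 in place of 0.52. Snhg3 was at 238 CPM in 72 2-cell-like cells of the ESC library and at 345 CPM in 63 such cells of the 48h-EpiLC library. Both were above its 143 to 184 CPM in the 4 classes. In the ESC library, however, the interval of these cells (207 to 272) held that of 1 KO cluster of 742 cells, at 218 CPM (209 to 227). Rcc1, which shares exonic bases with Snhg3, was at 85.3 and 79.8 CPM in the 2-cell-like cells of the ESC and 48h-EpiLC libraries, below its level in the KO classes. Snhg6 in the 239 primitive endoderm-like cells was at 55.4 CPM, near its 53.1 CPM in the KO ESCs. The Y-linked genes were at 108.7 CPM in that cluster. Barcodes with over 10% mitochondrial UMIs, 1376 in the ESC and 2267 in the 48h-EpiLC library, had a summed level of 1096 and 904 CPM.

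The spread from cell to cell was set against counting. In cells thinned to 5000 UMIs the variance over the mean (Fano factor, 1 for pure counting) of the 9 genes was between 0.87 and 1.30, against a median of 1.03 to 1.04 over all genes of at least 0.1 UMI per cell. The Pearson correlation of the UMIs of 2 host genes over the cells of a class had a median of -0.013 to 0.026 over 36 pairs and reached at most 0.160. At means of up to 2.21 UMIs per cell, and of 0.005 to 0.022 for Snhg18, neither measure can show how much the cells differed.

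Levels were also set against the cell cycle and the integrated stress response (ISR), which lowers translation initiation, within each class. Between the fifth of cells with the most and the fifth with the least UMIs of S-phase, G2/M or ISR genes, the summed level of the 9 genes differed by -0.13 to 0.05 on the log2 scale in the 4 classes. Snhg3 was higher in the fifth with the most S-phase UMIs than in the fifth with the least by 0.26 (0.16 to 0.37) in KO ESCs and 0.27 (0.17 to 0.37) in KO 48h-EpiLCs, and Snhg5 by 0.45 (0.27 to 0.64) in KO ESCs. Snhg8 was at 85.8 CPM in the KO ESCs with the most and 66.0 CPM in those with the least ISR UMIs (0.38, 0.22 to 0.54). Snhg6 in WT ESCs was at 101 CPM in the fifth with the most ISR UMIs and 163 CPM in the fifth with the least (-0.69, -1.03 to -0.35). In KO ESCs it was at 55.7 and 48.6 CPM (0.20), with an interval that reached 0. By G2/M UMIs Snhg6 was at 48.2 and 62.8 CPM in KO ESCs (-0.38, -0.57 to -0.19). In WT ESCs it was at 192 and 174 CPM (0.14, -0.13 to 0.42). Snhg18 in KO ESCs was at 9.56 CPM in the fifth with the least and 1.60 CPM in the fifth with the most S-phase UMIs, and the part of the fibroblast-like cells in this was not tested. Differences were computed for 9 genes, 3 lists and 4 classes, so some intervals would clear 0 by counting alone.

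Other non-coding host genes were listed beside the 9. Of 12 such genes listed, 11 were features of the libraries and 10 had a mean of at least 5 CPM. None of the 10 was past 1.5-fold between KO and WT ESCs, with a median log2 ratio of -0.05, 5 above 0 and 5 below. The largest ratios among those of at least 20 CPM were those of Dancr (102 CPM in WT and 76.4 CPM in KO ESCs, -0.41), Snhg11 (18.2 and 23.7 CPM, 0.36) and Epb41l4aos (106 and 85.6 CPM, -0.30). With stage, Dancr, Snhg15 and Snhg20 were past 1.5-fold lower in both lines. In WT cells Dancr was at 102 CPM in ESCs and 46.5 CPM in 48h-EpiLCs, Snhg15 at 81.9 and 41.3 CPM, and Snhg20 at 34.1 and 11.3 CPM. Snhg11, a host transcribed in neurons, was lower in ESCs than in 48h-EpiLCs, at 18.2 and 45.2 CPM in WT and 23.7 and 48.5 CPM in KO cells. Snhg20 was also past the threshold between the lines in 48h-EpiLCs, at 22.1 CPM in KO and 11.3 CPM in WT cells (0.92).

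Protein-coding hosts and ribosomal protein genes had medians near 0 between the lines. Of 34 protein-coding snoRNA hosts, 1 was past 1.5-fold lower in KO ESCs (Rpl21, 1965 CPM in WT and 1200 CPM in KO) and 1 higher (Nol12, 82.7 and 125 CPM), and their median was -0.03. The 80 ribosomal protein genes had a median of -0.06 in ESCs, and 6 of them were past 1.5-fold lower in KO at either stage, led by Rpl29 (1006 CPM in WT and 292 CPM in KO ESCs). Ribosomal protein genes have many near-identical pseudogenes, so their counts are uncertain. From ESC to 48h-EpiLC the median of the protein-coding hosts was 0.09 in WT and 0.04 in KO cells. That of the 80 ribosomal protein genes was 0.14 and 0.10. These medians were opposite in sign to the median of the 9 host genes. The 22 other genes of translation with a 5′TOP had medians of 0.15 and 0.08, with none past 1.5-fold in any comparison.

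The factors that carry out NMD had a median near that of all genes. Of 24 NMD factors, 23 were tested in ESCs, where Smg8, a subunit of the kinase complex that phosphorylates Upf1, was at 26.9 CPM in KO and 17.1 CPM in WT cells. Magohb, a core protein of the exon junction complex, was at 18.5 and 28.3 CPM, and the median of the list was 0.06. With stage Magohb was higher, at 28.3 CPM in ESCs and 62.7 CPM in 48h-EpiLCs of WT. Of 21 mRNAs known as NMD targets, 19 were tested in ESCs, with a median of -0.13. Gadd45g (52.5 CPM in WT, 15.6 CPM in KO), Gadd45a (38.0 and 17.8 CPM) and Arc (10.1 and 5.80 CPM) were past 1.5-fold lower and Nat9 (10.1 and 16.8 CPM) and Chac1 (2.92 and 7.14 CPM) higher in KO. Gadd45a and Gadd45g encode stress sensors. Upp1, a uridine phosphorylase, was at 610 CPM in WT ESCs and 171 CPM in WT 48h-EpiLCs, and at 494 and 320 CPM in KO cells. Among 14 snoRNP proteins 1 was past 1.5-fold in ESCs, Naf1, an assembly factor of the pseudouridylation guides, at 117 CPM in WT and 72.4 CPM in KO cells.

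**Figure D5:**
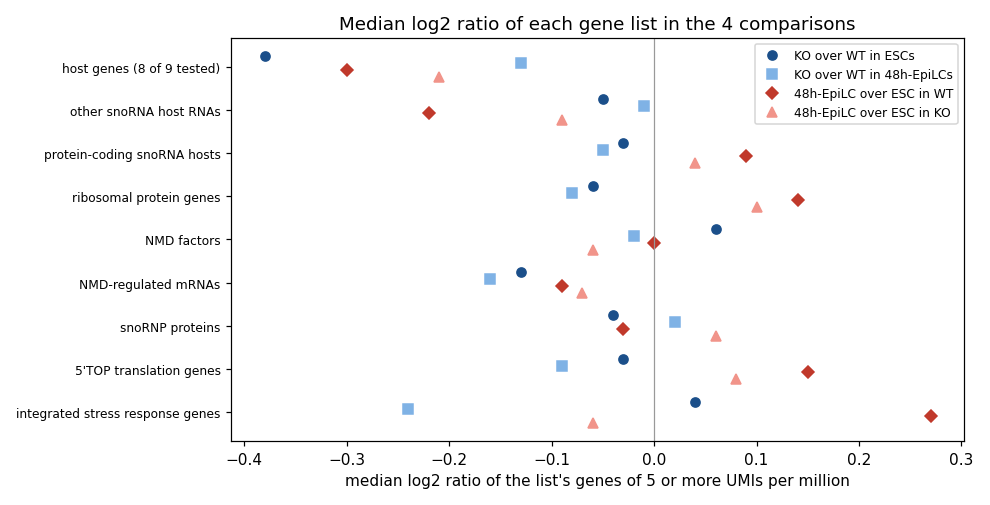
Median log2 ratio of each gene list in the 4 comparisons, over the genes of the list with a mean of at least 5 CPM. The host genes (8 of 9 tested) have medians of -0.38 to -0.13, while ribosomal protein genes are at -0.06 and -0.08 for KO over WT and at 0.14 and 0.10 for 48h-EpiLC over ESC.

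The genes whose level over clusters was most like that of the host genes were found over 23 clusters of at least 100 cells, on log2 levels less the mean of the clusters of the same library, among 5638 genes of at least 20 CPM. Nearest to the mean of the 9 were Gtf2h5 (Pearson r 0.90), Tomm6 (0.89), Sox11 (0.86), 1110038B12Rik (0.86) and Mif (0.85). Nearest to Snhg6 were Atp5j (0.96) and Taf13 (0.94). Cenpw was near both Snhg1 (0.92) and Zfas1 (0.91), and Nat10 (0.92) near Snhg5. Among the host genes the closest pairs were Snhg1 with Zfas1 (0.89), Snhg3 with Snhg5 (0.85) and Snhg6 with Zfas1 (0.83). Clusters share a library, and most differ by line, so the values describe these clusters and carry no test.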

How the data were processed

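The deposited values were UMI counts of each gene in each barcode of 3′ droplet libraries. Per the submitters' processing notes Cell Ranger 3.0.2 and mm10 were used, and per the methods tdTomato was added to the reference. A step against free RNA and whether reads were counted by strand were not given in the sources used here. The members and lists were chosen with earlier results of these data known. Counts were summed per class and scaled to the class total (CPM), and ratios are of CPM + 1. Intervals are exact at 95% (Poisson for CPM, Clopper-Pearson for shares, conditional binomial for ratios) and cover counting error only. With 1 library per stage no test was run. Named genes beyond the members were, of each list and comparison, up to 3 with the largest ratio among those of at least 20 CPM. Genes below 20 CPM that were past the threshold, and others named with them, were chosen after their values were seen. For a symbol with 2 rows (Ddit3, Snhg4) the larger row was used. Doublets were scored but not removed (scanpy 1.11.5, whose automatic threshold marked 568 ESCs and 0 48h-EpiLCs, where it had not worked). Clusters (Leiden) were named by at least 3 markers at 20 CPM and 4-fold above other cells. TMM factors came from edgeR 4.0.16. The fold and interval steps were checked on simulated counts. One gene of the lists is not reported here.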

Additional observations from a re-analysis of the deposited data

Results flagged for a closer look

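Levels in clusters of other cell types, whose cells the comparisons used only in part, stood above every class in 3 places, by intervals that did not overlap. Snhg18 was at 42.9 CPM among the feeder fibroblast-like cells, which were in the ESC library. Snhg3 was at 238 CPM in 2-cell-like cells of the ESC library and at 345 CPM in those of the 48h-EpiLC library. The interval in the ESC library met that of a KO ESC cluster, at 218 CPM.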

How the results depend on the processing

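The 12 alternatives to the scaling, the pseudocount, the rule for the lines, and the cell filters kept all 4 medians below 0 (-0.46 to -0.22, -0.17 to -0.09, -0.27 to -0.13 and -0.15 to -0.08 in the order of the report). The number of host genes past 1.5-fold was 1 for KO over WT in ESCs with lines told apart by cluster, where Zfas1 was at -0.50. It was 4 for 48h-EpiLC over ESC in WT with cells thinned to 5000 UMIs, where Snhg8 was at -0.86, Snhg18 at 1.48 and Snhg12 at 0.02 in place of -0.21. For 48h-EpiLC over ESC in KO it was 0 with lines by cluster, where Snhg6 was at -0.45, and 0 without the top 10% of doublet scores, where it was at -0.52. The cause was not tested. Of 432 ratios of single genes, 408 stayed within the counting interval and no called ratio turned its sign. Snhg6 ranged from -1.75 to -1.41 for KO over WT in ESCs. The depth of the WT classes limits Snhg18. No paired analysis was possible because each stage has 1 library, so the groups share fewer than 2 replicate numbers.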
